A study of Homo sapiens with 6 samples.

Results

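The 10 genes described here are the death receptors, their ligand TRAIL and the proteins that start or restrain caspase-8. They are TNFSF10, TNFRSF10A, TNFRSF10B, TNFRSF10C, TNFRSF10D, FAS, TNFRSF1A, FADD, CASP8 and CFLAR, and were taken by gene symbol from the 35993 genes of the deposited table. The cells were MIA PaCa-2, a long-established line from a human pancreatic carcinoma, and RNA-seq covered 3 libraries of untreated cells and 3 libraries of cells given rhCYGB, the recombinant human form of cytoglobin, a haem protein that binds oxygen. All cells were kept in medium with 1% FBS, rhCYGB was added at 4 µM for 48 h, and the labels give the untreated cells no vehicle or control protein. By the study's methods the protein was made in E. coli, purified on 2 columns and found free of endotoxin.

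Death receptors are cell surface proteins of the TNF receptor superfamily that carry a death domain on the inside of the membrane. When TRAIL binds TNFRSF10A or TNFRSF10B, or Fas ligand binds FAS, the adaptor FADD joins the receptor and gathers caspase-8, which then activates itself and cuts the executioner caspases. CFLAR, also called c-FLIP, resembles caspase-8 without its protease activity and competes for the same complex, and the decoy receptors TNFRSF10C and TNFRSF10D bind TRAIL without passing on the full death signal. TRAIL is studied in pancreatic cancer because many carcinoma cells carry its receptors and differ in whether they die on contact with it.

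Reads counted on genes came to between 34838399 and 42271299 per library, and 9 of the 10 genes had enough counts for a test among 14728 genes. The test was the quasi-likelihood test of edgeR, with p-values adjusted by Benjamini-Hochberg across the whole table, and levels are given as CPM, the counts relative to the TMM-scaled library size. The response in these cells was broad. Of all genes tested, 77.6% passed an adjusted p under 0.05 (39.0% higher and 38.6% lower after rhCYGB) and 27.1% passed with at least a 2-fold change as well (12.4% higher and 14.7% lower). Among the 9 members tested, 2 rose, 6 fell and 1 did not pass, and 1 rose and 2 fell by 2-fold or more. That 8 of 9 were called is near the share over all genes and is no result about the members, so the direction and size of each change are described below. The median log2 fold change was -0.50 over the 9 members and -0.0046 over all genes tested.

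The labels name no separate cultures for the libraries of a group, so the p-values measure only the spread between these libraries, which may be technical. Cell identity was checked on marker genes. The summed CPM of the epithelial list lay between 3844 and 4074 in untreated and between 2961 and 3167 in rhCYGB libraries, with EPCAM at 0 counts in all 6. Its members differed. KRT8 and KRT19 were lower (log2 fold changes -0.81 and -0.61), while KRT18 (0.04) and KRT7 (0.49) did not pass an adjusted p under 0.05. The leukocyte list went from 4.06 to 4.17 down to 0.162 to 0.271 CPM, all of it CD14, with PTPRC and CD3E at 0. The endothelial list went from 109 to 122 down to 10.5 to 13.6 CPM, nearly all of it CDH5, with PECAM1 at 0. The mesenchymal list, all of it VIM, went from 7918 to 8098 up to 11541 to 12056 CPM. The fibroblast and stellate list, nearly all of it ACTA2, stayed between 5.17 and 6.11 CPM. In that list COL1A1 had 6, 10 and 6 counts in untreated libraries and 0 in every rhCYGB library. The acinar and islet list was at 0 throughout. The part of these shifts in the values below was not tested. All libraries are labelled as the same cell line. In bulk samples, fewer cells of the line with a marker's RNA cannot be told apart from less of it per cell.

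TNFSF10, which encodes the ligand TRAIL, had 98, 124 and 129 counts in the untreated libraries and 4, 0 and 8 counts in the rhCYGB libraries. The groups were far apart, with the highest rhCYGB library well below the lowest untreated one. The level fell from 2.85 ± 0.277 to 0.108 ± 0.109 CPM (SD, n = 3), a log2 fold change of -4.64 with an SE of 0.434 and an adjusted p of 1.04e-07 from edgeR. This was the largest change among the members by size, at rank 80 of the 14728 genes. The gene is a weakly expressed one that passed the filter on low counts through its untreated libraries alone, and its fitted fold change is less certain than the counts themselves. It was -4.11 without rhCYGB library 2, which held 0 counts, and -5.58 without rhCYGB library 3, and the call was kept in both.

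The sequence around the annotated start of TNFSF10 is shown because it is the member with the deepest fall and has a single start in the deposited table. It is taken from RefSeq on GRCh38.p14, reads 5′ to 3′ on the gene's strand over 200 bases before and 20 bases after the start, and has the 20 transcribed bases in capitals.
TNFSF10 start, chr3:172523411-172523630, minus strand: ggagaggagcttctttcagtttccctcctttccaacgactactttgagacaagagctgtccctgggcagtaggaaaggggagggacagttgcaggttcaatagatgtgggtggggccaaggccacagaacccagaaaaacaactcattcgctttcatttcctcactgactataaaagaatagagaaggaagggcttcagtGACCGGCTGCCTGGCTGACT
A core interferon response element, searched on both strands as 2 copies of GAAA with any 2 bases between them, lies with its first base 187 bases before the start. That pattern occurs in 3.57% of 35116 RefSeq promoter windows of 300 bases, so a match in 1 window is a description of the letters and not of a bound factor.

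TNFRSF10B, the TRAIL receptor also known as DR5, was the member that rose most. The untreated libraries held 4437, 4905 and 4284 counts and the rhCYGB libraries 17418, 16102 and 18052 counts. Every rhCYGB library was above 3 times the highest untreated one. The level rose from 111 ± 7.19 to 481 ± 10.8 CPM (SD, n = 3), a 4.33-fold rise (log2 fold change 2.11, SE 0.046, adjusted p = 6.18e-15 from edgeR) at rank 832 of 14728 by size. RHOBTB2, which overlaps TNFRSF10B in the deposited table, went the other way, from 914, 1100 and 1021 counts to 383, 381 and 394 counts.

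TNFRSF10A, the second signalling TRAIL receptor, known as DR4, had 890, 1217 and 959 counts in untreated and 1255, 1038 and 1268 counts in rhCYGB libraries. The raw counts overlapped between the groups, while the CPM did not, with 23.5 to 27.2 CPM in untreated and 31.2 to 34.4 CPM in rhCYGB libraries. The rise from 24.9 ± 2.00 to 33.1 ± 1.70 CPM was small beside that of TNFRSF10B, at a log2 fold change of 0.41 with an SE of 0.066 (adjusted p = 3.89e-05 from edgeR).

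The decoy receptors were lower. TNFRSF10D, which has a truncated death domain, had 1545, 2059 and 1894 counts in untreated and 1146, 1003 and 1251 counts in rhCYGB libraries. Its groups did not overlap, and it fell from 44.6 ± 2.74 to 31.6 ± 2.01 CPM (log2 fold change -0.50, SE 0.061, adjusted p = 2.50e-06 from edgeR). TNFRSF10C, which is anchored in the membrane without any death domain, was near the limit of detection, with 5, 7 and 6 counts in untreated libraries and 0 in every rhCYGB library. It did not pass the filter and was not tested in the fit used here. Without a filter on low counts it was called lower (adjusted p = 0.00933 from edgeR), as it was with DESeq2 (adjusted p = 0.0156). Set against a floor of 3 counts over the rhCYGB group, its level was at least 5.24-fold lower. That bound covers counting error in the rhCYGB group only and takes the 18 untreated counts as exact. The overlapping gene LOC254896 held 49, 54 and 30 counts in untreated and 33, 16 and 18 counts in rhCYGB libraries.

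**Figure D1:**
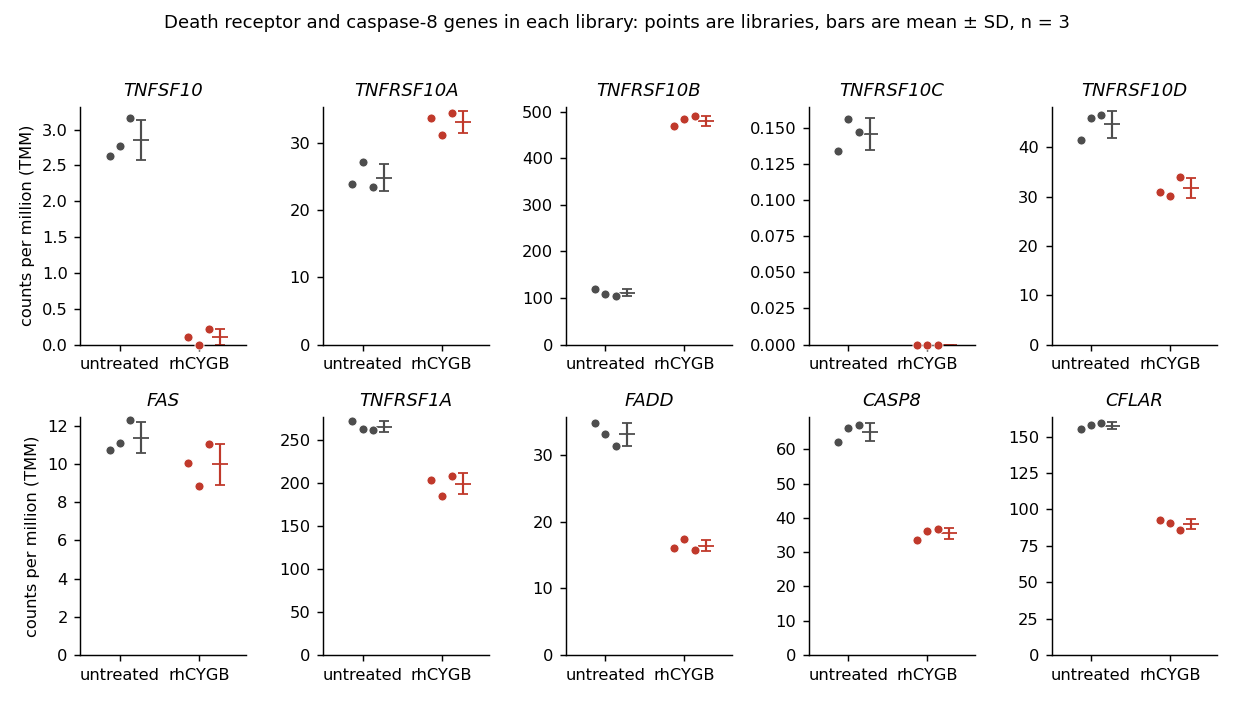
CPM of the 10 genes in each library, with 1 panel per gene, axes from 0 and linear, untreated libraries in grey and rhCYGB libraries in red, and the mean ± SD (n = 3) beside the points. TNFRSF10B stands at 105 to 119 CPM in untreated and 469 to 490 CPM in rhCYGB libraries, and FAS is the panel in which the groups overlap.

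Levels of different genes were compared per length, with the deposited FPKM. In the untreated cells TNFRSF10B stood at 3.39, 2.74 and 3.04 times the FPKM of TNFRSF10A in the 3 libraries, and after rhCYGB at 9.48, 10.6 and 9.72 times. The mean log2 ratio was 1.70 higher after rhCYGB. The sum of the decoys TNFRSF10C and TNFRSF10D came to 0.303, 0.347 and 0.374 of the sum of TNFRSF10A and TNFRSF10B in untreated libraries and to 0.0663, 0.0634 and 0.0701 after rhCYGB. This log2 ratio was lower by 2.35, given as -2.35 in the direction rhCYGB minus untreated. Neither ratio overlapped between the groups, with an exact two-sided permutation p of 0.1, the smallest that 3 against 3 can give. TNFRSF10B makes up most of the denominator of the decoy ratio, so its rise and the fall of TNFRSF10D enter that ratio together.

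FAS, the receptor of Fas ligand, did not pass the test. It had 401, 498 and 502 counts in untreated and 373, 295 and 407 counts in rhCYGB libraries, and the CPM of the groups overlapped, at 10.8, 11.1 and 12.3 against 10.0, 8.87 and 11.0. The log2 fold change was -0.19 with an SE of 0.101 (adjusted p = 0.0988 from edgeR). Its call depended on the scaling, since without TMM factors, on total counts alone, it was -0.36 with an adjusted p of 0.00476 from edgeR, a setting under which the median of all genes moved to -0.17. ACTA2, which overlaps FAS in the deposited table, held 180 to 243 counts in the 6 libraries.

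TNFRSF1A, the main receptor of TNF and the most abundant member in untreated cells, had 10178, 11808 and 10673 counts in untreated and 7574, 6178 and 7710 counts after rhCYGB. The groups were separate, and the level fell from 266 ± 6.19 to 200 ± 12.3 CPM (log2 fold change -0.41, SE 0.044, adjusted p = 4.83e-07 from edgeR).

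FADD, the adaptor that links receptor and caspase, had 1295, 1483 and 1281 counts in untreated and 598, 577 and 582 counts in rhCYGB libraries. The rhCYGB libraries were close together and all less than the lowest untreated one by a wide margin. FADD fell from 33.1 ± 1.67 to 16.4 ± 0.824 CPM (log2 fold change -1.01, SE 0.064, adjusted p = 8.72e-10 from edgeR), just past the 2-fold limit.

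CASP8, the initiator caspase of the complex, had 2314, 2968 and 2736 counts in untreated and 1248, 1208 and 1351 counts in rhCYGB libraries. It fell from 65.1 ± 2.66 to 35.5 ± 1.67 CPM without overlap of the groups (log2 fold change -0.88, SE 0.052, adjusted p = 4.69e-10 from edgeR). CFLAR, its inhibitor and partner, had 5777, 7082 and 6508 counts in untreated and 3450, 3021 and 3170 counts in rhCYGB libraries. It fell from 158 ± 2.29 to 89.9 ± 3.53 CPM, again without overlap (log2 fold change -0.81, SE 0.040, adjusted p = 4.82e-11 from edgeR). The inhibitor and the caspase thus fell by nearly the same amount in counts.

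How the balance of CFLAR and CASP8 moved depended on the unit. By FPKM, CFLAR stood at 1.09, 1.08 and 0.928 times CASP8 in untreated and at 2.12, 1.46 and 1.31 times in rhCYGB libraries, a mean log2 difference of 0.64 (exact two-sided permutation p = 0.1, the smallest possible). By counts, CFLAR stood at 2.50, 2.39 and 2.38 times CASP8 in untreated and at 2.76, 2.50 and 2.35 times after rhCYGB, a log2 difference of 0.065 (exact two-sided permutation p = 0.6). The groups overlapped in counts and not in FPKM, which also takes transcript length into account. The highest FPKM ratio was that of rhCYGB library 1, where CFLAR stood at 21.6 FPKM against 16.2 and 15.3 in rhCYGB libraries 2 and 3. In that library the short CFLAR variant 3 held 508 counts, against 68 and 39 in rhCYGB libraries 2 and 3. The part that the mixture of CFLAR transcripts had in this was not tested.

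**Figure D2:**
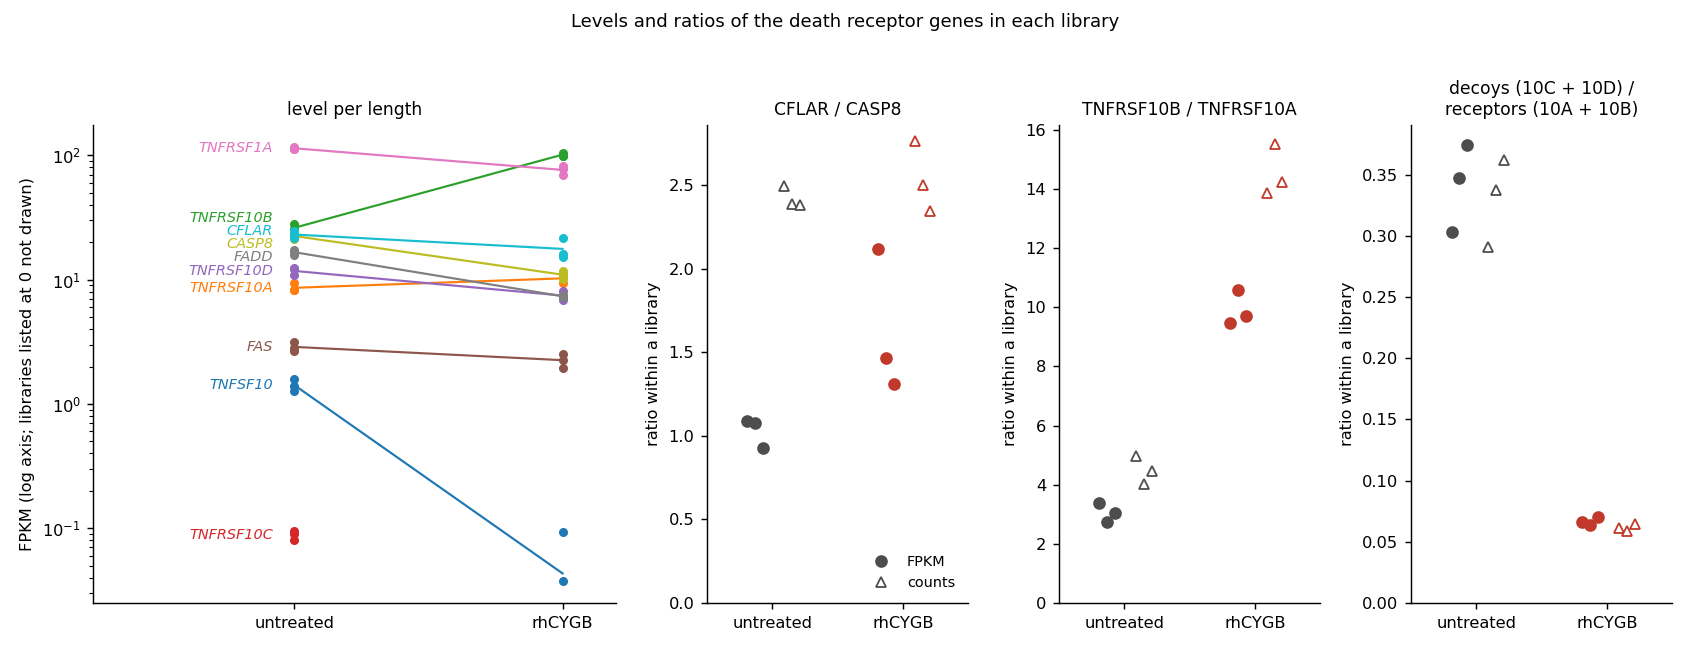
Left, FPKM of the members on a log axis, with a point per library and a line between group means, leaving out libraries listed at 0. Right, 3 ratios within each library on linear axes from 0, from FPKM (filled circles) and from counts (open triangles), in untreated (grey) and rhCYGB (red) libraries. TNFRSF10B rises from a mean FPKM of 26.2 to 101.5 and crosses TNFRSF1A, and the CFLAR to CASP8 ratio separates the groups in FPKM only.

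By mean FPKM the order in untreated cells was TNFRSF1A at 114, TNFRSF10B at 26.2, CFLAR at 23.1, CASP8 at 22.5, FADD at 16.6, TNFRSF10D at 11.8, TNFRSF10A at 8.61, FAS at 2.88, TNFSF10 at 1.42 and TNFRSF10C at 0.0885. CFLAR and CASP8 were the neighbours in that order whose libraries overlapped. After rhCYGB, TNFRSF10B led at 101.5, followed by TNFRSF1A at 76.5, CFLAR at 17.7, CASP8 at 11.0, TNFRSF10A at 10.2, TNFRSF10D at 7.45, FADD at 7.35, FAS at 2.25, TNFSF10 at 0.0433 and TNFRSF10C, listed at 0. Here CASP8 overlapped with TNFRSF10A, TNFRSF10D with FADD, and TNFSF10 with TNFRSF10C. No test was made of these levels.

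As deposited, TNFSF10 lies at 172223298 to 172241220 on chromosome 3, FAS at 90750555 to 90776816 on chromosome 10, TNFRSF1A at 6437937 to 6451242 on chromosome 12, FADD at 70049269 to 70053508 on chromosome 11, and CFLAR and CASP8 near each other on chromosome 2, at 201980827 to 202041410 and 202098166 to 202152434. The 4 TNFRSF10 genes lie together on chromosome 8. These positions are on a build that is not GRCh38, and no human build is named in the sources used here.

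The table of transcripts lists 63 transcripts of the 10 genes, whose counts sum to the gene counts. These are the assembler's split of reads that often fit several transcripts, and they are less certain than the gene counts. Of 42 tested with edgeR, 17 passed an adjusted p under 0.05, 6 higher and 11 lower, where 29.9% of all 32577 transcripts tested passed, 15.1% higher and 14.8% lower. Leaving out 1 library at a time left between 8 and 13 calls. Shares were compared with an exact two-sided permutation test over libraries, which cannot go below 0.1.

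All 3 TNFRSF10B transcripts rose. Variant 1 went from 2539, 2843 and 2269 to 7821, 7307 and 8622 counts, variant 2 from 1735, 2020 and 1785 to 7930, 7407 and 7754 counts, and variant 3, a non-coding transcript, from 163, 42 and 230 to 1667, 1388 and 1676 counts. Variants 1 and 2 code for 440 and 411 residues. The share of variant 1 went from 56.0 ± 2.70% to 46.0 ± 1.53% of the gene's counts and that of variant 2 from 40.7 ± 1.36% to 44.8 ± 1.64% (SD, n = 3), neither with overlap between the groups (exact permutation p = 0.1 for both). The mean share of the non-coding variant 3 went from 3.30% to 9.16%. TNFRSF10B was thus raised in both coding forms, with a shift of 10.0 points of its counts away from variant 1, to variants 2 and 3 alike.

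CASP8 starts at 3 places in the deposited table, and its fall was uneven among them. Transcripts from the first start, at 202098166 to 202098186 on chromosome 2 as deposited, had 1077, 1437 and 1094 counts in untreated and 785, 768 and 956 counts in rhCYGB libraries. Those from the second start, at 202122758, had 526, 501 and 569 counts in untreated and 373, 165 and 294 counts in rhCYGB libraries. Those from the third start, at 202125259, had 711, 1030 and 1073 counts in untreated and 90, 275 and 101 counts after rhCYGB, the deepest fall of the 3. The share of the first start went from 45.0 ± 4.43% to 65.7 ± 4.36% and that of the third from 34.9 ± 4.25% to 12.5 ± 8.90%, both without overlap (exact permutation p = 0.1 for both). The share of the second start overlapped between the groups, at 20.1 ± 2.98% and 21.8 ± 8.11%. With FPKM in place of counts the mean shares of the first and the third starts were 46.2% and 35.7% in untreated and 67.8% and 12.6% in rhCYGB libraries.

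The sequences at the 3 starts are shown because these are the starts among which the shares of CASP8 counts differed. RefSeq on GRCh38.p14 places starts at 201233463, 201258035 and 201260536 of chromosome 2. The gaps of 24572 and 2501 bases between them equal those between the deposited starts 202098186, 202122758 and 202125259, which is how they were matched. Each reads 5′ to 3′ over 200 bases before and 20 bases after the start, with those 20 bases in capitals. The first is the start of variants E and F. Variant B is deposited from 202098166, so the lower-case bases just before that start are transcribed in variant B.
CASP8 at the first start, chr2:201233263-201233482, plus strand: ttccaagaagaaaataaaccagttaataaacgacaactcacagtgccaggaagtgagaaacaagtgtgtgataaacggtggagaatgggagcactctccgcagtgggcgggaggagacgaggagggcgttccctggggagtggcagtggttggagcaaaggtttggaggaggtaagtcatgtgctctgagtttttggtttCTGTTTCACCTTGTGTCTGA
CASP8 at the second start, chr2:201257835-201258054, plus strand: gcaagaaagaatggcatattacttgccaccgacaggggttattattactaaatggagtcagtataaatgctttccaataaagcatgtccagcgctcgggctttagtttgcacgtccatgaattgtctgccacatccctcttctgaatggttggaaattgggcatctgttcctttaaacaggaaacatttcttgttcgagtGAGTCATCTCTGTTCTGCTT
CASP8 at the third start, chr2:201260336-201260555, plus strand: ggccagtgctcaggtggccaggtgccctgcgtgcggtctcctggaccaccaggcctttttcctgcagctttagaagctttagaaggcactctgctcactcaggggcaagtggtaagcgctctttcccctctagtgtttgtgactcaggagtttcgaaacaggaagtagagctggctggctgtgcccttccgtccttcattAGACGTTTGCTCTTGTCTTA
The first window holds a GC box, GGGCGG on either strand, 96 bases before the start of variants E and F. It holds a core interferon response element across that start, with its first base 3 bases before it. It also holds TTCNNNGAA, a gamma-activated site core, 200 bases before the start. No match to these patterns or to TGATGNAA, an amino acid response element core, was found in the second or the third window of 300 bases. The GC box occurs in 45.0%, TTCNNNGAA in 7.66% and TGATGNAA in 3.62% of all promoter windows.

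Of single CASP8 transcripts, variant F from the first start went in share from 28.4 ± 1.12% to 46.4 ± 5.29% while its own counts, 661, 873 and 744 in untreated and 649, 550 and 561 in rhCYGB libraries, did not pass the test (log2 fold change -0.25, adjusted p = 0.123 from edgeR). Variants C and I, both from the third start, went from 17.3 ± 0.370% to 6.83 ± 4.49% and from 17.6 ± 3.92% to 5.66 ± 4.43% (exact permutation p = 0.1 for each of these 3 shares). Variants C and F both code for 464 residues and differ in where the transcript starts. The shares of variants B and H, at 15.3 ± 3.23% against 17.1 ± 8.35% and at 11.7 ± 1.24% against 11.9 ± 3.90%, overlapped between the groups.

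CFLAR transcripts were grouped by where they end, since long and short forms of c-FLIP differ in their 3′ exons. Variant 10, which ends at 202004601, had 996, 1243 and 1120 counts in untreated and 862, 824 and 787 counts after rhCYGB, and its share went from 17.3 ± 0.189% to 25.7 ± 1.37%. The 5 short transcripts that end at 202006323 had 402, 562 and 339 counts in untreated and 766, 419 and 399 counts in rhCYGB libraries, and their share went from 6.70 ± 1.38% to 16.2 ± 5.22%. Both shares were higher after rhCYGB in every library (exact permutation p = 0.1 for both). In rhCYGB library 1 the short transcripts rested on 508 counts of variant 3, which had 68 and 39 counts in the other rhCYGB libraries. Transcripts that end at 202037407 to 202037411 and at 202041410, which include the long forms, overlapped between the groups in counts, at 35.7 ± 1.01% against 28.4 ± 10.2% and at 40.2 ± 1.24% against 29.5 ± 12.0% of the counts (exact permutation p = 0.4 for both).

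The CFLAR shares stood differently in FPKM. The share of variant 10 in the gene's FPKM was 23.7% in untreated cells and 23.8% after rhCYGB, so it differed in counts only, while that of the short transcripts ending at 202006323 went from 35.2% to 53.1%. The ends that overlapped in counts did not overlap in FPKM. The share of the transcripts ending at 202037407 to 202037411 was 19.0 to 23.3% in untreated and 9.03 to 15.8% in rhCYGB libraries, a mean difference of -9.80 points, and that of the transcripts ending at 202041410 was 16.4 to 19.9% against 5.96 to 14.1%, a difference of -8.80 points (exact permutation p = 0.1 for both). Among the single transcripts with at least 10% of the counts, variant 1, which like variant 2 codes for the full length of 480 residues, had 538, 1429 and 1398 counts in untreated and 151, 182 and 376 after rhCYGB, a log2 fold change of -2.11 (SE 0.494, adjusted p = 0.0259 from edgeR). That call was lost without untreated library 2 or 3 or without rhCYGB library 1 or 2, and the share of variant 1 overlapped in counts at 17.0 ± 6.68% against 7.42 ± 3.93% (exact permutation p = 0.2). In FPKM the share of variant 1 differed by -5.21 points (exact permutation p = 0.1). Variants 2 and 11 did not pass the test, with log2 fold changes of -1.22 and -1.75, so the full-length protein is coded by a transcript that was called lower and by another that was not. Without rhCYGB library 2, variant 11 passed, with a log2 fold change of -3.07 (adjusted p = 0.00477 from edgeR).

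The point where variants 1 and 10 part is shown because it sets a full-length form beside the shorter one whose share of counts was higher after rhCYGB. Both are coding sequence of GENCODE on GRCh38, with the last 30 shared bases in lower case and the next 60 bases of each transcript in capitals. They share 523 coding bases, or 174 whole codons, and the last shared base is 201136107 on chromosome 2, plus strand.
CFLAR variant 1: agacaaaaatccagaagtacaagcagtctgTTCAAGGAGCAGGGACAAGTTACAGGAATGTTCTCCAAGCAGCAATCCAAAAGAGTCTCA
CFLAR variant 10: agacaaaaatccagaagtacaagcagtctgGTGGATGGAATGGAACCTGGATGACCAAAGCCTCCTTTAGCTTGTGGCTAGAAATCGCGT
Variant 1 goes on to 480 residues and variant 10 ends after 250.

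**Figure D3:**
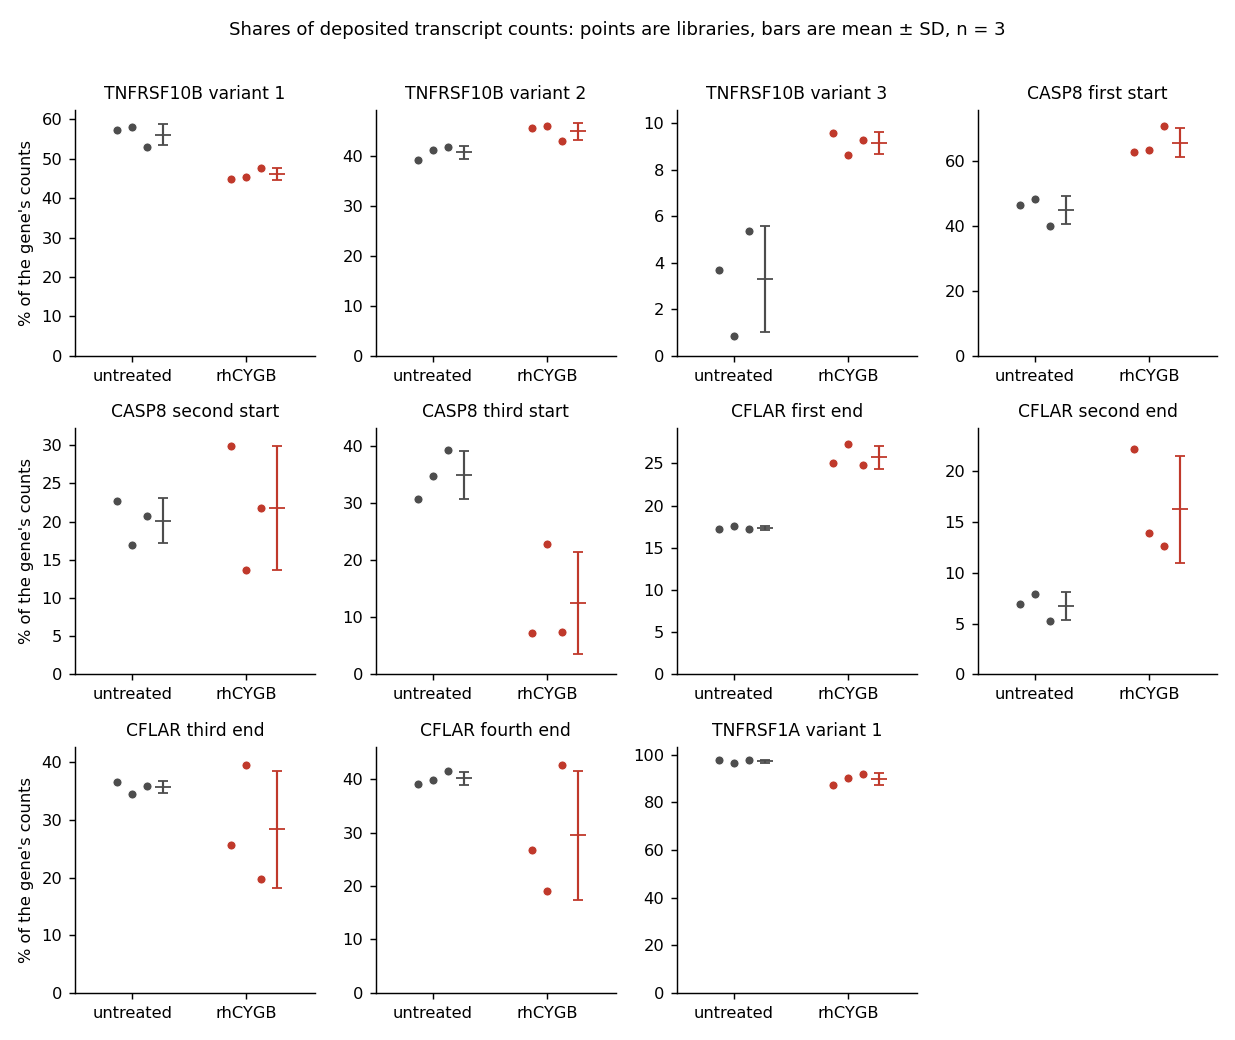
Share of the gene's counts, in percent, held by deposited transcripts or groups of transcripts in each library, with linear axes from 0 that differ between panels, untreated libraries in grey, rhCYGB libraries in red, and the mean ± SD (n = 3) beside the points. CASP8 starts and CFLAR ends are numbered in the order of their positions. The first CASP8 start goes from 45.0% to 65.7% and the third from 34.9% to 12.5%, while the third and the fourth CFLAR ends overlap between the groups.

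TNFRSF1A was carried by variant 1, with 97.3 ± 0.667% of its counts in untreated and 89.8 ± 2.40% in rhCYGB libraries (exact permutation p = 0.1). That variant fell from 9937, 11394 and 10424 to 6606, 5578 and 7090 counts, while variant 2 went from 69, 110 and 50 to 238, 205 and 161 counts and variant 3 from 172, 304 and 199 to 586, 395 and 384 counts. FAS variants 1 and 2 did not pass the test, and their shares overlapped widely. TNFSF10 lay mostly on variant 1, at 90, 99 and 90 counts in untreated and 4, 0 and 8 after rhCYGB, and variant 4, a non-coding transcript, had 39 counts in untreated library 3 alone. TNFRSF10A, TNFRSF10C, TNFRSF10D and FADD are listed with 1 transcript each.

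The other genes of the pathway were read from 8 lists of 38 genes in all, of which 33 were tested, 19 were higher, 9 were lower and 5 did not pass. On total counts without scaling factors 18 were higher and 12 lower. Of all genes tested 77.6% were called, 39.0% higher and 38.6% lower, so most genes of any list are called here and the counts below are descriptions of the lists. EDAR, TNFRSF11B, FASLG and RIPK3 had 0 counts in every library, and LTA had 3 counts in all. FASLG, the ligand of FAS, was thus not detected at this depth.

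Of the other death domain receptors, all 3 tested were higher, where 39.0% of all genes tested were. NGFR, the low-affinity neurotrophin receptor, rose from 3.64 ± 0.556 to 306 ± 8.24 CPM (log2 fold change 6.39, adjusted p = 2.33e-17 from edgeR), and TNFRSF21, known as DR6, by 1.36 on the log2 scale. TNFRSF6B, a soluble decoy that captures Fas ligand, fell from 394 ± 11.4 to 117 ± 7.03 CPM (log2 fold change -1.75, adjusted p = 3.65e-14), and TNFRSF1B, the second TNF receptor, had a log2 fold change of -1.48, both from edgeR. Of the ligands, TNF rose from 27, 29 and 30 to 205, 196 and 236 counts (log2 fold change 3.08) and TNFSF15 from 7, 0 and 6 to 37, 26 and 24 counts (2.88), while TNFSF10 fell. TNFSF15 was near the limit of detection and passed the filter on low counts through its rhCYGB libraries alone. Its fitted fold change and call are less certain than the counts themselves.

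Among 8 adaptors and death effector domain proteins, 4 were higher, 2 lower and 2 did not pass. PEA15, a death effector domain protein that binds FADD and caspase-8, rose from 118 ± 6.45 to 367 ± 6.21 CPM (log2 fold change 1.63) and DEDD2 by 1.51. CASP10, the initiator caspase most like CASP8, had a log2 fold change of -1.86, from 19.9 ± 0.741 to 5.48 ± 0.465 CPM, and RIPK1, a kinase of the TNF receptor complex, one of -0.46. Of 7 ubiquitin ligases and inhibitors of apoptosis, 4 were higher and 2 lower, with BIRC3 (0.93) and XIAP (0.83), both of the inhibitor of apoptosis family, at one end and CUL3 (-1.14), the scaffold of a ligase that modifies caspase-8, and TRAF3 (-0.33) at the other.

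Of 7 executioners and mitochondrial links, 3 were higher, led by CASP9 (0.77) and DIABLO (0.67), and 2 were lower, BID (-0.86), which caspase-8 cuts to engage mitochondria, and CASP6 (-0.81). MLKL, the effector of necroptosis, had a log2 fold change of -1.77. Among transcription factors known at the TNFRSF10B promoter, DDIT3, known as CHOP, rose from 14.7 ± 3.04 to 248 ± 6.24 CPM (log2 fold change 4.09) and ATF4 from 209 ± 16.8 to 809 ± 31.3 CPM (1.95), and SP1 had a log2 fold change of 0.46. Each of these named pathway genes passed an adjusted p under 0.05 in the same edgeR fit. Whether any of these factors acted on TNFRSF10B was not tested.

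**Figure D4:**
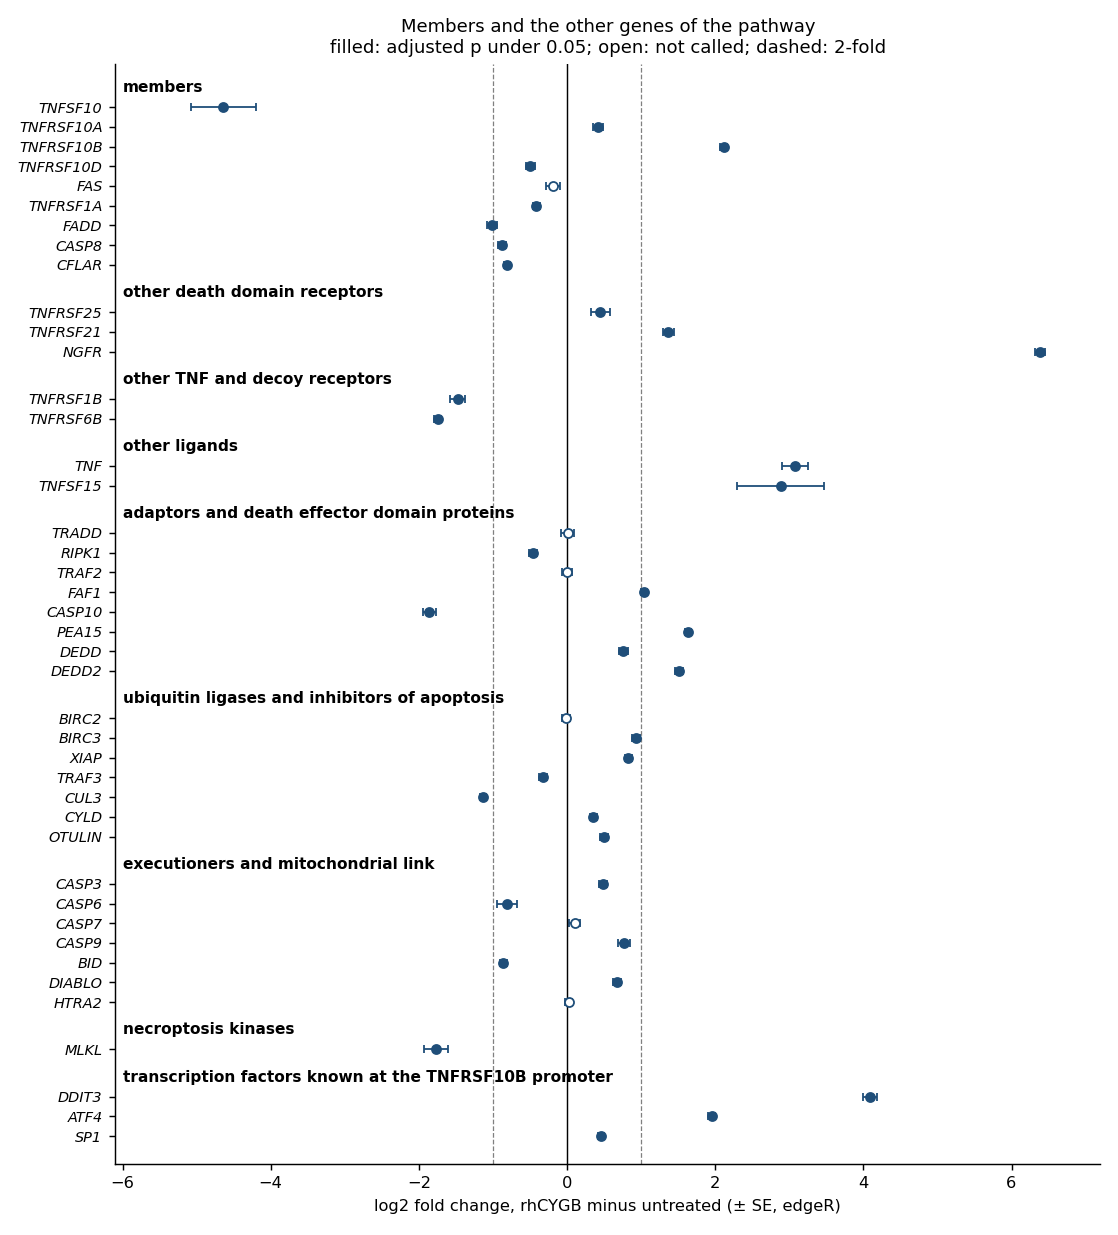
log2 fold change with SE from edgeR for the 9 members tested and the 33 other pathway genes tested, grouped by list, with filled points for an adjusted p under 0.05, open points for genes that did not pass, and dashed lines at 2-fold. Members lie between -4.64 for TNFSF10 and 2.11 for TNFRSF10B, and NGFR at 6.39 is the point farthest to the right.

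As a description of genes with a like pattern, the Pearson correlation of log2 CPM over the 6 libraries was taken among 12753 genes with a mean of at least 1 CPM. Nearest to TNFRSF10B were PAK1, PRICKLE3 and ATF3 (log2 fold changes 1.02, 1.18 and 5.57), and 1917 genes had an r above 0.99 with it. Nearest to TNFSF10 were PIP5K1C, PIK3R4 and NOVA2 (-0.18, -0.55 and -2.10), and 85 genes had an r above 0.99 with it. The correlation does not compare sizes of change, and for TNFSF10 it rests on few rhCYGB counts. The libraries form 2 groups, so such values mostly state that both genes differ between the groups.

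Of the 9 members tested, 8 had CPM ranges that did not overlap between the groups, where 79.5% of all genes tested did not overlap. CFLAR and TNFSF10 were the members whose sizes of change moved most with the unit. With limma on log2(FPKM + 1), the log2 fold change of CFLAR was -0.38 (adjusted p = 0.0113) and that of TNFSF10 was -1.21 (adjusted p = 1.40e-07). That scale understates changes of low values such as those of TNFSF10. With limma on log2(FPKM + 0.1), TNFSF10 was at -3.45 and CFLAR, which is not a low value, was still at -0.40.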

How the data were processed

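RNA-seq gene and transcript tables of 6 MIA PaCa-2 libraries were used, grouped by their labels. The submitters' processing notes name FastQC 0.11.7, HISAT2 2.1.0 and StringTie 2.1.3b. They list a mouse build although the cells are human, and the deposited positions are not those of GRCh38. The kit was stranded, and whether counting used strand is not given in the sources used here. The authors deposited read counts per gene and per transcript as whole numbers without normalization, together with FPKM values scaled to length and depth. Their 12 TPM columns, 6 per table, were not used.

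Counts were fitted with edgeR 4.0.16 in R 4.3.3 (filterByExpr, TMM, quasi-likelihood test, all 6 libraries, no block), and an adjusted p under 0.05 was called. The fits were tested on simulated counts in which few genes changed, which does not check the scaling where most genes are called. Alternatives were DESeq2 1.42.0, limma 3.58.1 on FPKM, other scalings and filters, summed transcript counts, a replicate block and leaving out each library. A floor of 3 counts equals 0.0669 to 0.0902 CPM, and the dispersion gave a coefficient of variation of 5.48%. Libraries of a group differed beyond counting error (chi-square over degrees of freedom 4.67 to 6.61), so none was a copy.

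Named genes were all members, at most 2 rises and 2 falls per pathway list, transcripts with at least 10% of a gene's counts, and the 3 genes most correlated with TNFRSF10B and TNFSF10. TNFRSF10B variant 3, TNFRSF1A variants 2 and 3, CFLAR variant 3 and overlapping genes were named after their values were seen. Members and lists were chosen with earlier results of these data known. Grouping transcripts by start and end, with positions within 300 bases joined, was chosen after seeing the data. Promoters came from RefSeq (GRCh38.p14), which matched 6 of the 10 members, and coding lengths from GENCODE on GRCh38. A few genes were left out of the pathway and marker lists and are not reported here.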

Additional observations from a re-analysis of the deposited data

How the results depend on the processing

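TNFRSF10A, TNFRSF10B, TNFRSF10D, TNFRSF1A, CFLAR, CASP8 and FADD kept their direction and stayed called in all 16 alternatives, and TNFSF10 in the 15 that could test it. FAS passed with upper-quartile factors (-0.33), total counts (-0.36), limma on log2(FPKM + 1) (-0.26) and on log2(FPKM + 0.1) (-0.35), and lay between -0.27 and -0.12 with 1 library left out, passing only without rhCYGB replicate 3. The median of all genes moved to -0.15, -0.17 and -0.15 with upper-quartile factors, total counts and limma on log2(FPKM + 0.1). Members lower by 2-fold were 1 with at least 10 counts in every library, where TNFSF10 could not be tested, and 1 to 2 with 1 library left out, because FADD slipped under 2-fold without untreated replicate 1, rhCYGB replicate 1 or rhCYGB replicate 3. They were 3 with upper-quartile factors, total counts and limma on log2(FPKM + 0.1), where CASP8 passed 2-fold (-1.02, -1.04 and -1.03), and 3 without a filter and with DESeq2, where TNFRSF10C was called. The difference of the CFLAR to CASP8 ratio was 0.065 by counts.

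Replicate numbers did not pair the libraries (correlations of same-numbered deviations -0.048 to 0.0072). With the replicate block no member gene changed its call, and the member transcripts called went from 17 to 9. With 1 library left out they numbered 8 to 13, losing CASP8 variants C, I and H, CFLAR variants 1 and 10, TNFRSF10A and TNFSF10 variant 1 in some of the settings. The cause was not tested.

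Differences of shares that changed sign, all of which overlapped between groups, were those of CFLAR's start at 201983214 with FPKM (6.96 points), and, with 1 library left out, the same start (-3.58 to 2.64), CFLAR's start at 201980827 (-2.61 to 7.48), FAS's start at 90750555 (-0.77 to 0.17), CASP8's start at 202122758 (-2.43 to 5.69), CASP8 variants B (-2.75 to 5.51) and H (-1.97 to 1.82), CFLAR variant 2 (-6.11 to 1.59), and FAS variants 1 (-13.6 to 4.97) and 2 (-6.91 to 2.83). The share of CFLAR variant 10 moved by 0.032 points in FPKM against 8.36 in counts. Low counts limit TNFRSF10C and TNFSF10, and the assembler's split of reads limits every transcript value.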
